A study of Mus musculus with 5 samples.

Results

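The RNA levels described here are those of 41 genes that act in G2 and mitosis, among the 55487 genes of a mouse RNA-Seq series. The 41 genes were taken as a list of names, matched through their Ensembl identifiers to the GRCm38 annotation, by a rule that uses no measured value, although the list was drawn up with earlier results of these data known. They comprise 7 genes for cyclins, CDK1 and CDC25 phosphatases, 4 for mitotic kinases, 6 for the spindle assembly checkpoint and the anaphase-promoting complex (APC/C), and 6 for the centromere and kinetochore. A further 2 act on chromosome condensation and the chromosome surface, 9 encode spindle motors and spindle-associated proteins, 6 act at the central spindle and in cytokinesis, and 1, Foxm1, encodes a transcription factor.

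The cells were HT22, an immortalized mouse line derived from hippocampus, and they were collected 48 h after transfection with 10 nM of siRNA. One library came from cells given siRNA210 against the long noncoding RNA GAS5, 2 came from cells given siRNA596 against the same RNA, and 2 came from cells given the negative control (NC) siRNA. The NC samples carry the label untreated, whereas their titles give NC siRNA, and they were read as NC siRNA here. All groups share 1 cell line and transient transfection, siRNA210 has 1 library, and no label says that the libraries of a group came from separate cultures, so that *P*-values measure only the spread between these libraries.

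Entry into mitosis is driven by CDK1 bound to A- and B-type cyclins, which CDC25 phosphatases activate and which Polo-like and Aurora kinases reinforce. The spindle assembly checkpoint then holds the APC/C in check until kinetochores are attached, after which cyclin B is destroyed and the central spindle directs cytokinesis. The RNAs of these proteins rise together in G2, and their promoters are known for CCAAT boxes, which bind NF-Y, and for cell cycle homology regions, which bind the MuvB complex.

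Promoter sequences of RefSeq, build GRCm38.p6, were found for 34 of the 41 genes. The 150 bases before the annotated start are shown for 7 of them, which come from some of the roles. None is from the centromere and kinetochore, central spindle and cytokinesis, or transcription factor roles. All 7 hold a CCAAT box, so they do not stand for the 34. Each is written 5′ to 3′ on the strand of its gene. Capitals mark the CCAAT box, or ATTGG where it lies on the other strand, and the cell cycle homology region, TTTGAA or TTCGAA, or TTCAAA where it lies on the other strand.

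Cdk1, the mitotic kinase, at chr10:69352913-69353062 on the minus strand: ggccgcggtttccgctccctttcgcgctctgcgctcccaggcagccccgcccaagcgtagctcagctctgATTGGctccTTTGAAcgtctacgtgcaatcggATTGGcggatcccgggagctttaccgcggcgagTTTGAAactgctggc
Ccnb2, a B-type cyclin, at chr9:70421555-70421704 on the minus strand: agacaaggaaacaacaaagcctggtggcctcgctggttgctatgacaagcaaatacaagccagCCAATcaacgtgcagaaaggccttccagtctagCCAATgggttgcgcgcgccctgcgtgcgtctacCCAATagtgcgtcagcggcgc
Aurka, Aurora kinase A, at chr2:172370571-172370720 on the minus strand: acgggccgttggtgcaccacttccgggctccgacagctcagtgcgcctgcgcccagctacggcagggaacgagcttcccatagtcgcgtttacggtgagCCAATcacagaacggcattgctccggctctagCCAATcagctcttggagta
Cdc20, an APC/C activator, at chr4:118437344-118437493 on the minus strand: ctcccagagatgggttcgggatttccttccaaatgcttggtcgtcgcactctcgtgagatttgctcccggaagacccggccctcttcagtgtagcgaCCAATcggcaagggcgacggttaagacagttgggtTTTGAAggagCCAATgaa
Ube2c, the APC/C ubiquitin-conjugating enzyme, at chr2:164769779-164769928 on the plus strand: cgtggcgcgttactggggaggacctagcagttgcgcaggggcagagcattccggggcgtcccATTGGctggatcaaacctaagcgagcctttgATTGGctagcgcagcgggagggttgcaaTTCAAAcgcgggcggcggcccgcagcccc
Top2a, DNA topoisomerase II alpha, at chr11:99024190-99024339 on the minus strand: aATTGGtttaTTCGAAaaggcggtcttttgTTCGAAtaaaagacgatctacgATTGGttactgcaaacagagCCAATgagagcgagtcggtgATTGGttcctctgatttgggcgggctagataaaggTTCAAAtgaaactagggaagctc
Kif11, the spindle motor Eg5, at chr19:37376232-37376381 on the plus strand: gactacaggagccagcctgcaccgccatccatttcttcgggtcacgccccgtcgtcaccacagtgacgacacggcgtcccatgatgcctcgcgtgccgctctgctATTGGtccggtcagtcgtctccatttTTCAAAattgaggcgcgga

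From 250 bases before the start to 50 after it, and on both strands, 26 of the 34 promoters (76.5%) held at least 1 CCAAT, against 41.1% of the 27025 genes with a promoter in the RefSeq table and 43.4% of the 10551 of these that were tested. At least 2 CCAAT boxes stood in 18 promoters (52.9%), against 13.3% of all and 16.7% of the tested genes. A cell cycle homology region was found in 27 (79.4%), against 21.7% and 16.5%, and both motifs together in 23 (67.6%), against 9.65% and 8.23%. The RefSeq promoters thus held these letters more often in the 34 genes than in the rest of the table. A pair of CCAAT boxes 31 to 33 bases apart, a spacing chosen after the sequences were seen, occurred in 7 of the 34, namely Ccnb1, Ccnb2, Cdk1, Aurka, Nek2, Ube2c and Hmmr (20.6%, against 0.918% and 1.71%). A match describes letters in a window and is no measure of binding.

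**Figure D1:**
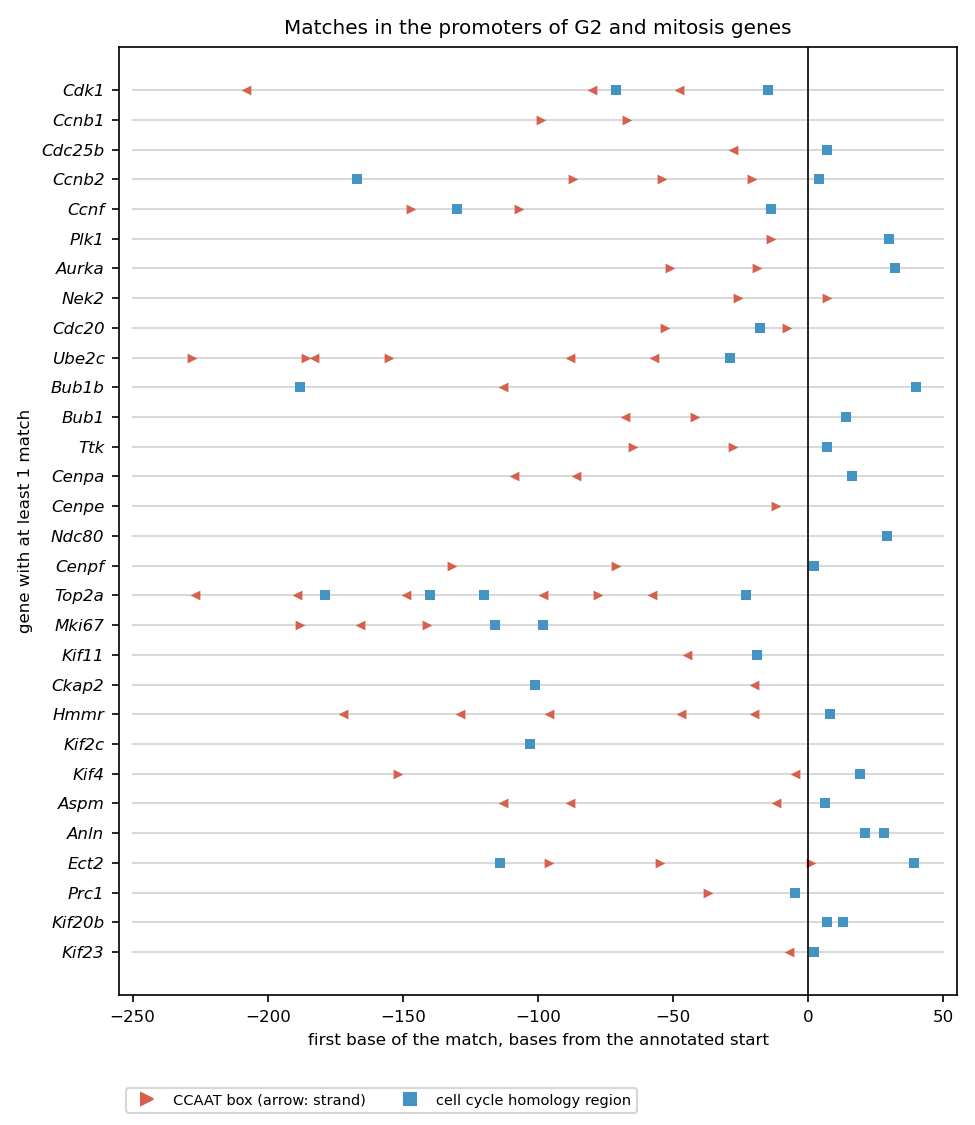
Position of each CCAAT box (arrowheads, pointing along its strand) and cell cycle homology region (squares) in bases from the annotated start, for the 30 genes with at least 1 match, ordered by role. CCAAT boxes lie mostly upstream of the start, as does most of the window, from 250 bases before the start to 50 after it. Top2a, Ube2c and Hmmr hold the most.

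The library totals ran from 30660265 to 36492134 reads counted in genes. Gas5 stood at 90.4 and 76.0 CPM (counts scaled to a common library size, with TMM factors) in the NC libraries, 59.7 in siRNA210 and 65.9 in siRNA596 replicate 1, but at 179 in the library labelled siRNA596 replicate 2, which goes against its label. In that library 38.0% of all genes lay over 2-fold away from the mean of the other 4. The knockdown (KD) group was therefore taken first as siRNA210 with siRNA596 replicate 1, against both NC libraries (4 libraries), and then with all 5. Of 10 neuronal markers, 4 (Rbfox3, Nefl, Snap25 and Gria2) had at most 3 counts in every library, and the progenitor marker Sox2, the astrocyte marker Aqp4 and the oligodendrocyte marker Olig2 had 0. Nes, Vim, Col1a1 and Col1a2 were abundant, whereas the fibroblast marker Dcn had 16 and 0 counts in the NC libraries. Of the other neuronal markers, Map2 stood at 69.0 and 87.0 CPM in NC, Tubb3 at 25.3 and 14.9 CPM and Slc17a7 at 3.44 and 2.66 CPM. Syp had only 12 and 5 counts in NC, Syt1 4 and 0, and Grin1 0 and 2, so Map2 and Tubb3 made up most of the neuronal sum. The progenitor marker Pax6 stood at 41.9 and 49.4 CPM in NC, and the fibroblast marker Pdgfra at 43.4 and 31.3 CPM. The summed neuronal markers ran from 52.9 to 105 CPM across all 5 libraries and from 98.2 to 105 in the NC libraries, and the part of cell type in the results below was not tested.

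All 41 genes passed the filter on low counts and were well expressed. Per length, in TPM (counts divided by exon length and scaled to a common total), their NC means ran from 21.3 for Cdc25c to 355 for Top2a, with a median of 102 against 17.7 for all genes tested, and all 41 lay above that median of tested genes. After Top2a the highest NC means were those of Cdc20 (317 TPM), Plk1 (234 TPM), Mki67 and Tpx2 (218 TPM each) and Ube2c (214 TPM). Of the lowest, Cenpf stood at 34.0 TPM and Aspm at 34.3 TPM, which the NC libraries do not separate.

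**Figure D2:**
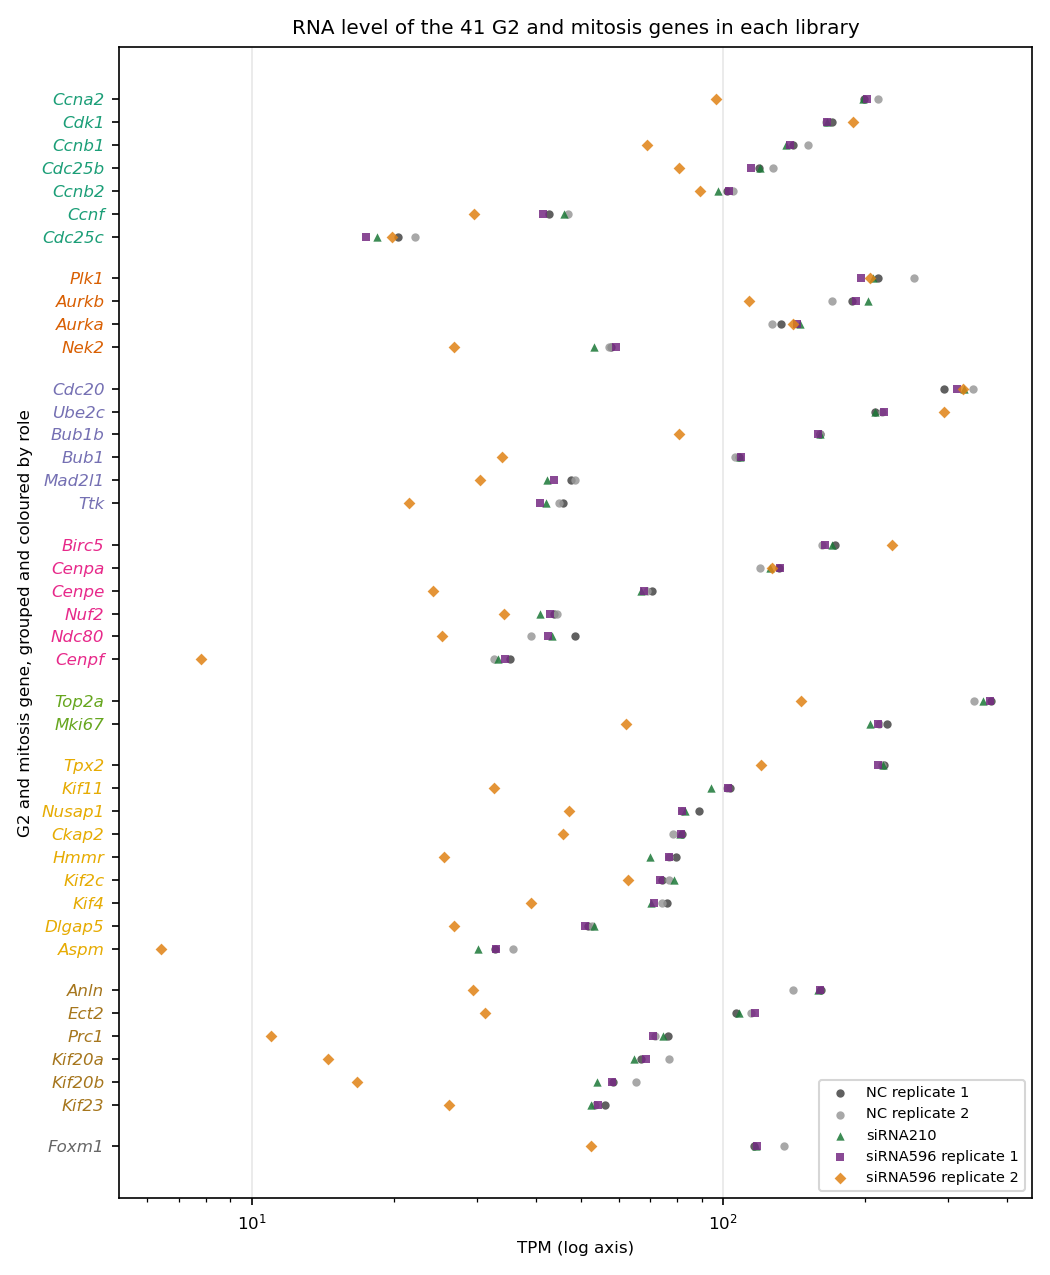
RNA level in TPM (log axis) of each of the 41 genes in each of the 5 libraries, grouped and coloured by role. In most genes the 2 NC libraries, siRNA210 and siRNA596 replicate 1 lie close together. The library labelled siRNA596 replicate 2 lies below all 4 of them in 33 genes, where 66.8% of all genes tested do so.

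The question asked of the 41 genes was whether their RNA differed between GAS5 KD and NC cells, in a study that also followed the cell cycle of these cells. Over the 4 libraries none of the 41 differed at an adjusted *P* of 0.05 in edgeR's quasi-likelihood test (lowest adjusted *P* = 0.967), as was the case for all 15867 genes tested (0%). At an unadjusted *P* of 0.05, edgeR called 1 of the 41, Aurka, against a background of 3.3% of all genes (523 genes), and DESeq2 called 0. None passed both that *P* and a 2-fold change, against 0.876% of all genes. The median log2 fold change, KD against NC, was -0.0021 over the 41 genes and -0.0023 over all genes tested, with 20 genes above 0 and 21 below.

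The differences were small as well as uncalled. The log2 fold changes ran from -0.21 for Cdc25c to 0.19 for Aurka, with a median standard error of 0.083, and 7 of 41 exceeded 0.1 in size, against 56.0% of all genes tested. The 95% intervals of the 41 genes reached from -0.47 to 0.38 at their widest. All 41 intervals lay inside a 1.5-fold change in either direction, and 29 lay inside 1.2-fold. Of all genes tested 58.9% and 16.4% did so, and of the 7144 genes expressed at least as highly as the lowest of the 41, 96.5% lay inside 1.5-fold. The 56.0% and 16.4% include many genes of lower level, and shares at like level were not counted for them. Changes of 1.5-fold or more thus lay outside the interval of each gene, and smaller ones were not detectable at this depth and number of libraries for the genes with wider intervals.

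**Figure D3:**
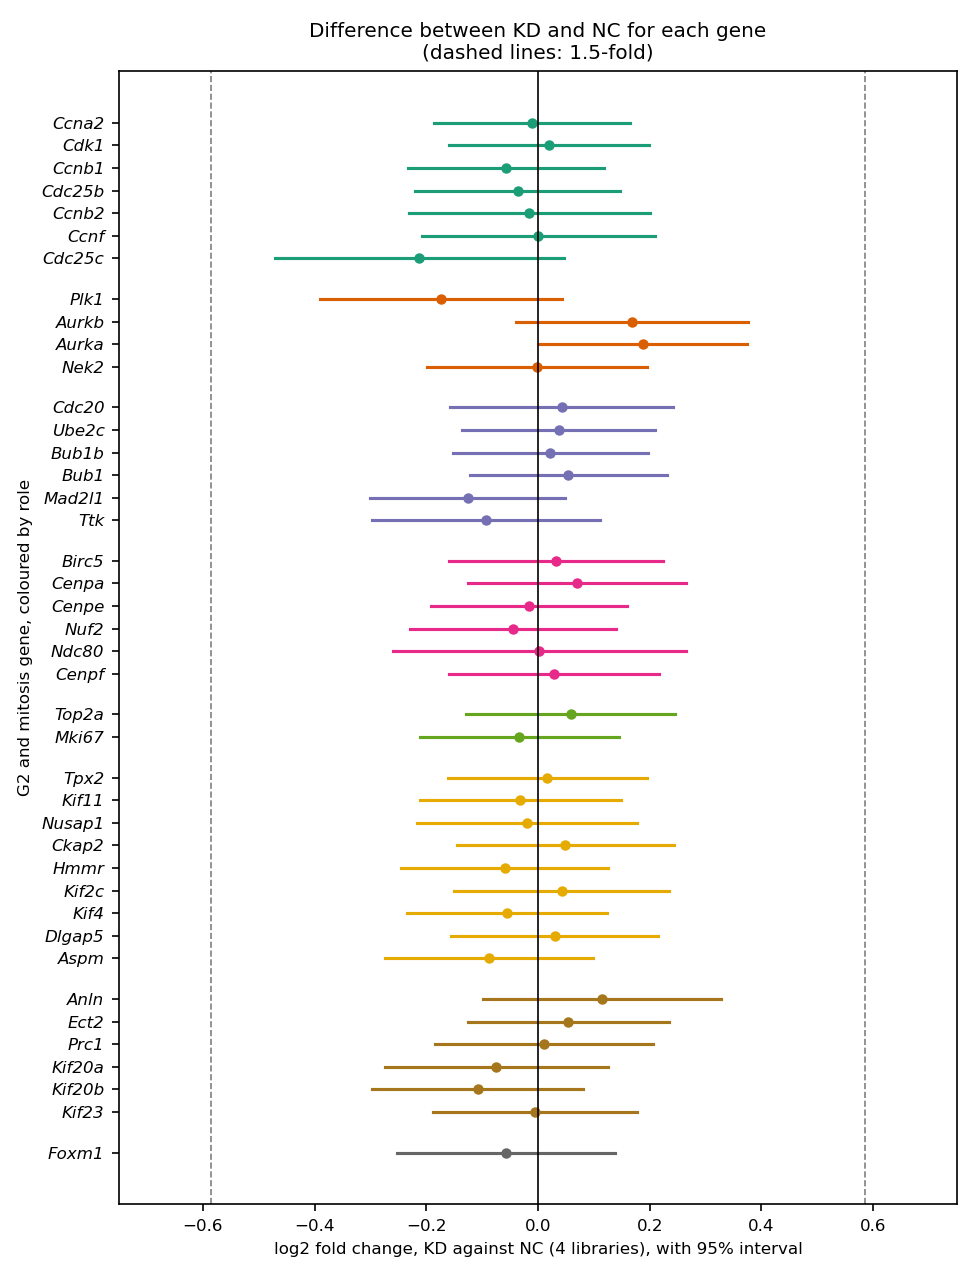
Log2 fold change of each gene, KD against NC over 4 libraries (points), with its 95% interval from edgeR (bars), grouped and coloured by role. Every interval lies between the dashed lines at 1.5-fold, and the interval of Aurka is the one that does not cross 0.

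Counted without a model, the 2 KD libraries lay above both NC libraries in 4 genes (Aurka, Aurkb, Bub1 and Ube2c), where 16.7% of all genes tested did so. They lay below both in 8 genes (Ccnb1, Cdc25c, Ttk, Mad2l1, Nuf2, Kif4, Aspm and Kif20b), where 16.2% of all genes did so. The shares of the 41, read against those backgrounds, do not set these genes apart. Bulk RNA does not tell a different number of cells in G2 and mitosis apart from a different amount of RNA per such cell.

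The cyclins, CDK1 and CDC25 phosphatases held the lowest of the 41 differences. Cdk1 stood at 232 and 218 CPM in the NC libraries, 231 in siRNA210, 225 in siRNA596 replicate 1 and 418 in the library labelled siRNA596 replicate 2. The first 4 libraries overlapped between groups, and the last stood alone (log2 fold change over 4 libraries 0.02, standard error 0.079). Ccnb1, cyclin B1, stood at 164 and 171 CPM in NC, 162 in siRNA210, 160 in siRNA596 replicate 1 and 131 in siRNA596 replicate 2. Both KD libraries of the first 4 were below both NC libraries, as was the library labelled siRNA596 replicate 2. In the first 4 the group means lay closer together than the NC libraries did, although means vary less than single libraries. The log2 fold change was -0.06 (standard error 0.078, unadjusted *P* = 0.48 from edgeR). Of the 50-base words in the exons of Ccnb1, 23.4% also occur in 6 other genes, the pseudogene Ccnb1-ps among them, so its counts are uncertain.

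Cdc25c, a phosphatase that activates CDK1, stood at 27.7 and 29.2 CPM in NC, 25.6 in siRNA210, 23.6 in siRNA596 replicate 1 and 43.7 in siRNA596 replicate 2. KD was below NC in the first pair and above it in the last library, so the order turned on that library. The log2 fold change was -0.21 over 4 libraries (95% interval -0.47 to 0.05, unadjusted *P* = 0.0967 from edgeR) and 0.12 over 5 (standard error 0.33). Cyclin B2 (Ccnb2), cyclin A2 (Ccna2), cyclin F (Ccnf) and Cdc25b had log2 fold changes from -0.04 to 0.0006. Summed, the 7 genes stood at 905 and 921 CPM in NC, 917 in siRNA210 and 885 in siRNA596 replicate 1.

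The mitotic kinases spanned nearly the whole range of the 41. Aurka, which matures the centrosomes and activates PLK1, stood at 92.7 and 86.3 CPM in NC, 104 in siRNA210, 99.9 in siRNA596 replicate 1 and 160 in siRNA596 replicate 2. siRNA210 and siRNA596 replicate 1 lay above both NC libraries, and the library labelled siRNA596 replicate 2, in which Gas5 goes against the label, lay higher still. The KD mean over 4 libraries was 102 ± 3.09 CPM (SD, n = 2) and the NC mean 89.5 ± 4.47 (SD, n = 2), a log2 fold change of 0.19 (standard error 0.083, 95% interval 0.002 to 0.37, unadjusted *P* = 0.0479 and adjusted *P* = 0.967 from edgeR). The unadjusted *P* was above 0.05 with DESeq2 (0.0791), and with all 5 libraries it was 0.172 at a log2 fold change of 0.44.

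Aurkb, the kinase of the chromosomal passenger complex, stood at 153 and 135 CPM in NC, 169 in siRNA210, 154 in siRNA596 replicate 1 and 150 in siRNA596 replicate 2. The first pair of KD libraries lay above NC by little, and the last library lay between the NC libraries (log2 fold change over 4 libraries 0.17, standard error 0.092, unadjusted *P* = 0.1011 from edgeR). Plk1, which drives mitotic entry and spindle assembly, had the opposite sign, at 129 and 150 CPM in NC, 129 in siRNA210, 118 in siRNA596 replicate 1 and 203 in siRNA596 replicate 2. NC replicate 1 and siRNA210 stood at nearly the same level, and the groups overlapped. Its log2 fold change was -0.17 over 4 libraries (standard error 0.096, unadjusted *P* = 0.103 from edgeR) and 0.11 over 5. Words of Plk1 are shared with its pseudogene at 6.56%. Nek2, a centrosome kinase, had a log2 fold change of -0.0021.

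Among the genes of the spindle assembly checkpoint and APC/C, Mad2l1, which encodes the checkpoint inhibitor MAD2, had the lowest value. It stood at 110 and 109 CPM in NC, 100 in siRNA210, 100.7 in siRNA596 replicate 1 and 115 in siRNA596 replicate 2. The first pair of KD libraries lay below both NC libraries and the last above them (log2 fold change over 4 libraries -0.13, standard error 0.077, unadjusted *P* = 0.136 from edgeR). Cdc20 stood at 151 and 170 CPM in NC, 171 in siRNA210, 161 in siRNA596 replicate 1 and 270 in siRNA596 replicate 2. The first 4 overlapped (log2 fold change 0.04, standard error 0.088), and 10.4% of its words occur in other genes. The checkpoint kinases Bub1 and Ttk had log2 fold changes of 0.05 and -0.09, the checkpoint protein Bub1b 0.02, and Ube2c 0.04. The exons of Ube2c overlap 592 bases of Tnnc2 on the opposite strand, and the strand setting of the counting is not given in the sources used here.

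The centromere and kinetochore genes Cenpa (the centromeric histone H3), Cenpe (a kinetochore motor), Cenpf, Ndc80 and Nuf2 (partners in the microtubule-binding NDC80 complex) and Birc5 (survivin, of the passenger complex) had log2 fold changes from -0.04 for Nuf2 to 0.07 for Cenpa. Ndc80 showed the widest spread of the 41 over the 4 libraries, 1.28-fold from lowest to highest. Its lowest and highest values, 68.0 and 86.9 CPM, were both NC libraries, with siRNA210 (79.4 CPM) and siRNA596 replicate 1 (75.9 CPM) between them.

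Top2a, which untangles sister DNA, stood at 918.5 and 825 CPM in NC, 906 in siRNA210, 912 in siRNA596 replicate 1 and 593 in siRNA596 replicate 2. Mki67, which coats mitotic chromosomes and marks proliferating cells, stood at 620 and 577 CPM in NC, 583 in siRNA210, 588 in siRNA596 replicate 1 and 281 in siRNA596 replicate 2. In both genes the first pair of KD libraries lay between the NC libraries and the last library lay far below them. The log2 fold changes over 4 libraries were 0.06 for Top2a and -0.03 for Mki67, with standard errors of 0.083 and 0.079.

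The spindle motors and spindle-associated proteins ran from -0.09 for Aspm, which holds the spindle poles, to 0.05 for Ckap2, with 4 of 9 above 0. Kif11, which pushes the poles apart, had a log2 fold change of -0.03, the depolymerase Kif2c 0.04, the chromokinesin Kif4 -0.06, and Tpx2, the activator of Aurora A, 0.02. Nusap1, Hmmr and Dlgap5 lay at -0.02, -0.06 and 0.03. Kif4 overlaps 832 bases of Pdzd11 on the opposite strand.

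At the central spindle, Anln, the scaffold of the contractile ring, had the third highest value of the 41. It stood at 404 and 341 CPM in NC, 407 in siRNA210, 400 in siRNA596 replicate 1 and 120 in siRNA596 replicate 2. NC replicate 2 alone was low among the first 4 libraries, and the groups overlapped (log2 fold change 0.11, standard error 0.095). Ect2, which activates RhoA at the cleavage site, and the bundling protein Prc1 lay at 0.05 and 0.01, and the kinesins Kif23, Kif20a and Kif20b at -0.0057, -0.07 and -0.11. Kif20a overlaps 1271 bases of Cdc23, and Prc1 911 bases of Rccd1, both on the opposite strand.

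Foxm1, which drives the transcription of many of these genes, stood at 184 and 208 CPM in NC, 191 in siRNA210, 187 in siRNA596 replicate 1 and 136 in siRNA596 replicate 2. Both KD libraries of the first pair lay between the NC libraries (log2 fold change -0.06, standard error 0.087).

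For most of the 41 genes the NC libraries differed from each other by more than the KD and NC means differed. The median size of the log2 difference between the NC libraries was 0.087 over the 41 genes, against 0.060 between siRNA596 replicate 1 and siRNA210 and 0.042 between the KD and NC means. Over all genes tested these medians were 0.197, 0.125 and 0.120. Means vary less than single libraries, so this order does not set the 41 genes apart. The gap between the NC libraries exceeded the gap between KD and NC in 31 of 41 genes, and did so in 67.2% of all genes tested. In 10 of the 41 both KD libraries lay between the NC libraries, where 21.7% of all genes tested did. The fold from the lowest to the highest of the 4 libraries had a median of 1.10 over the 41 genes, with 36 of 41 under 1.2. It had a median of 1.258 over all genes tested and 1.14 over the 7144 genes of like or higher level, of which 70.5% were under 1.2.

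**Figure D4:**
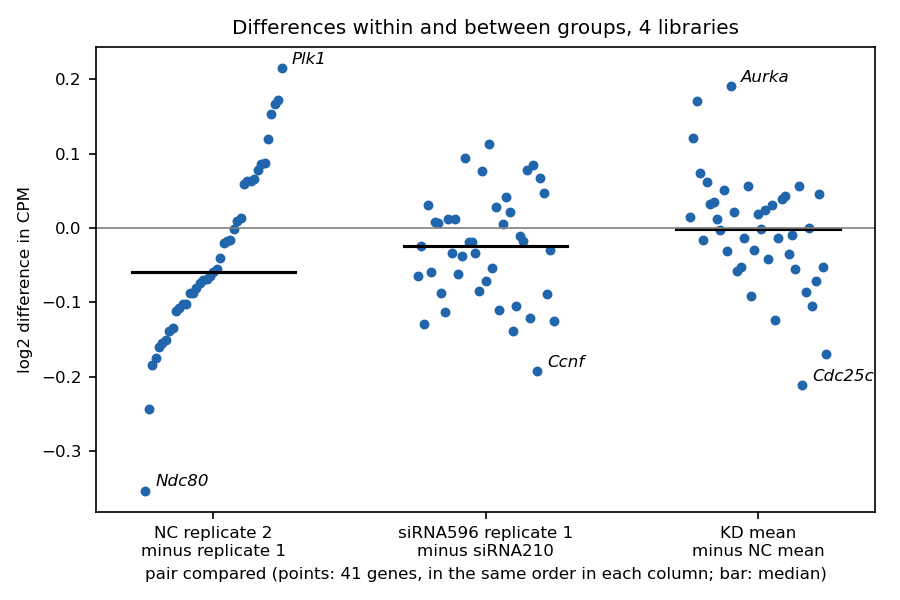
Log2 difference in CPM for each of the 41 genes between the NC libraries, between siRNA596 replicate 1 and siRNA210, and between the KD and NC means of 4 libraries. Points are genes, in the same order in each column, and bars are medians. The NC libraries differ by -0.35 (Ndc80) to 0.21 (Plk1), a wider range than the -0.21 to 0.19 between KD and NC. The KD and NC values are means, which vary less than single libraries.

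Summed over the 41 genes, the CPM was 6969 and 6683 in NC, 6928 in siRNA210 and 6833 in siRNA596 replicate 1. Both KD libraries lay between the NC libraries, and the ratio of KD to NC was 1.01. The sum was 5965 CPM in the library labelled siRNA596 replicate 2, and the ratio with all 5 libraries was 0.963. As a share of all counts the 41 genes made up 0.702% to 0.723% in the first 4 libraries and 0.514% in the last.

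With all 5 libraries no gene of the 41 passed an adjusted *P* of 0.05 in edgeR (lowest 0.963, background 0%) or an unadjusted one (lowest 0.172, background 0.372%). The log2 fold changes ran from -0.45 for Aspm to 0.53 for Ube2c, and the intervals widened to between -1.87 and 1.56. Of the 41 intervals 8 lay inside 1.5-fold and 24 inside 2-fold, where 5.94% and 34.4% of all genes tested did. The 3 libraries labelled as KD, of which siRNA596 replicate 2 has Gas5 above NC, all lay above both NC libraries in 2 genes, Aurka and Ube2c (background 8.3%). They lay below in 5, namely Ccnb1, Ttk, Kif4, Aspm and Kif20b (background 9.48%). Offsets were also fitted that remove each library's trend over the length of a gene's union of exons, not over the principal transcript. With them 20 of 41 intervals lay inside 1.5-fold, where 16.7% of all genes did. In edgeR 0 of the 41 genes then passed an unadjusted *P* of 0.05, where 61 of all genes did.

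The library labelled siRNA596 replicate 2 held the large differences among these genes. On TMM-scaled CPM it lay over 1.5-fold above the mean of the other 4 libraries in 8 of the 41 genes, where 29.8% of all genes did, and over 1.5-fold below in 13, where 31.2% did. It lay above all other 4 libraries in 14 (40.1% of all genes tested did) and below all 4 in 25 (43.7% of all genes). On library size alone these counts were 11 and 30 (31% and 52.6% of all genes), and in TPM they were 3 and 33 (18.4% and 66.8%). Ube2c and Birc5 were highest, at 344 and 349 CPM, 2.25 and 2.23 times the other libraries, and both stayed above all 4 in TPM. Plk1, Cenpa, Cdc25c, Cdc20, Aurka and Cdk1 were the other 6 over 1.5-fold higher. In TPM none of the 41 was over 1.5-fold higher and 27 were over 1.5-fold lower. The share of all genes past 1.5-fold in TPM was not counted, so the 27 is not a result about these genes. Most genes of all kinds lay below the other 4 libraries in TPM (66.8%). Prc1 was lowest, at 24.3% of the other libraries, followed by Anln (30.9%), Aspm (31.7%), Kif20a (34.2%) and Cenpf (37.5%).

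The roles differed in that library. The central spindle and cytokinesis genes summed to 409 CPM there against 1051 and 989 in NC, and Top2a with Mki67 to 873 against 1538 and 1402. The cyclins, CDK1 and CDC25 genes summed to 1070 CPM against 905 and 921, but without Cdk1 the other 6 summed to 652 CPM against 673 and 703. As a share of all counts the 7 genes stood at 0.0921% there and at 0.0939% and 0.0968% in NC, so their higher sum depended on the TMM scale and on Cdk1. The mitotic kinases summed to 567 CPM there against 447 and 440 in NC. The checkpoint and APC/C genes summed to 998 against 794 and 798. Both roles also held a larger share of all counts there than in either NC library. However, only 2 of 4 kinases (Plk1 and Aurka) and 3 of 6 checkpoint and APC/C genes (Ube2c, Cdc20 and Mad2l1) lay above the mean of the other 4 libraries. Bub1, Bub1b and Ttk lay below all 4, at 66.4, 155 and 47.6 CPM. The higher checkpoint and APC/C sum rested largely on Ube2c, at 344 CPM against 151 and 152 in NC. The centromere and kinetochore genes summed to 1001 CPM against 856 and 774, but their share lay between the NC libraries. The spindle motor group and Foxm1 were lower there. Transcript length moved with this: across the 41 genes the deviation of that library had a Spearman correlation of -0.69 with the length of the principal transcript (947 to 11130 bases). Across 12577 genes of all kinds with such a length it was -0.64, and across the 41 genes it ran from -0.32 to 0.16 in the other 4 libraries. The genes share their libraries and are not independent replicates. Among the genes off the trend, Prc1 was low at 3026 bases and Anln at 4605. Cdk1 was high at 4375 bases and Mad2l1 at 7557, with a log2 deviation of 0.13. The part of length in the differences of this library was not tested.

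**Figure D5:**
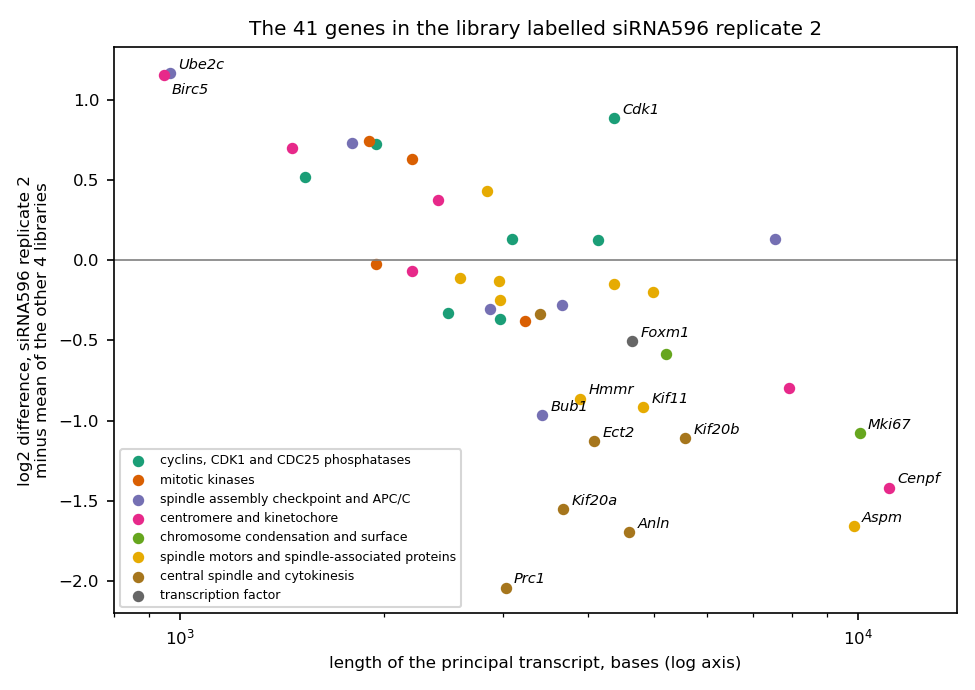
Log2 difference in CPM between the library labelled siRNA596 replicate 2 and the mean of the other 4 libraries, against the length of the principal transcript in bases (log axis), with 1 point per gene coloured by role. Birc5 and Ube2c, the shortest, lie highest, and the longest, Cenpf, lies far below 0, while Cdk1 lies above the other genes of its length.

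Lists of partners from the same machinery, chosen by function, were read beside the 41. Over 4 libraries 3.3% of all genes tested had an unadjusted *P* under 0.05 in edgeR. Of 17 genes of the APC/C and its regulators none had an unadjusted *P* under 0.05 upward and 1 downward over 4 libraries in edgeR, Anapc15, an APC/C subunit, at 10.9 and 11.8 CPM in NC, 6.77 in siRNA210, 8.97 in siRNA596 replicate 1 and 15.6 in siRNA596 replicate 2. It was lower in the first pair of KD libraries and higher in the last (log2 fold change -0.53, unadjusted *P* = 0.0189, adjusted *P* = 0.967 from edgeR). The next in that list, Anapc1, had a log2 fold change of -0.21 (unadjusted *P* = 0.0887 from edgeR). None of 12 checkpoint and passenger complex partners, 28 kinetochore and centromere partners, 21 genes of condensin, cohesin and separase, 22 other spindle and cytokinesis genes or 15 tested genes of mitotic entry and exit control had an unadjusted *P* under 0.05 in edgeR in either direction. Their medians ran from -0.06 to 0.02 over 4 libraries and from -0.28 (condensin, cohesin and separase) to 0.14 (checkpoint and passenger complex partners) over all 5, and that of the kinetochore and centromere partners turned from -0.03 to 0.12.

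The genes of smallest *P* in those lists were Zw10 (-0.17) and Kntc1 (0.11), which recruit dynein to kinetochores, Knl1 (-0.14) and Cenpp (0.29) of the kinetochore, and Rad21 (-0.20) of cohesin with Ncaph2 (0.19) of condensin. They were followed by Rcc1 (-0.14) and Mzt1 (0.11), of spindle assembly, and Bora (-0.16) and Arpp19 (-0.10), of mitotic entry, each given as its log2 fold change over 4 libraries. With all 5 libraries the sign turned for Kntc1 (-0.24), Rcc1 (0.09), Bora (0.06) and Arpp19 (0.16).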

How the data were processed

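The deposited counts table gives raw read counts, which the authors made with Trimmomatic, HISAT2 2.1.0 on GRCm38, SAMtools 1.7 and featureCounts 2.0.1, with no normalization. The strand setting is not given in the sources used here. A second deposited table, of the authors' DESeq2 1.26.0 comparison (means, fold changes, standard errors, Wald statistics and *P*-values), was not used. Identifiers were named through GENCODE for GRCm38, which matched 55141 of 55487. Counts were scaled by TMM, filtered with filterByExpr and tested with the quasi-likelihood test of edgeR 4.0.16 in R 4.3.3, with Benjamini-Hochberg adjustment over 15867 genes (4 libraries) or 16142 (5 libraries). The steps were tested on simulated data. DESeq2 1.42.0 and 13 alternative settings in all were run. TPM and the length offsets used the union of exons, and principal transcripts followed the annotation's APPRIS tags. Library totals ran from 30660265 to 36492134 counts. Named were all 41 genes and the 2 of smallest unadjusted *P* per partner list, with every library given for the 3 highest, the 3 lowest and 8 chosen regulators. The genes, lists and tests were chosen with earlier results of these data known. Figures used matplotlib 3.10.9.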

Additional observations from a re-analysis of the deposited data

Results flagged for a closer look

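In Ccnb2, siRNA210 lay below both NC libraries, at a log2 difference of -0.034 from their mean, and both libraries labelled siRNA596 lay above them. Of these, replicate 1 stood at 43.3 CPM against 43.1 in each NC library, and replicate 2 has Gas5 at 179 CPM, which goes against its label. In Dlgap5 the order was the opposite, with siRNA210 at 0.086 above the NC mean and both libraries labelled siRNA596 below both NC libraries. Neither difference between the siRNAs was tested, since siRNA210 has 1 library. In the library labelled siRNA596 replicate 2, Ube2c and Birc5 lay more than 2-fold above the highest NC library, at a log2 difference from the NC mean of 1.19 for Ube2c and 1.17 for Birc5 on TMM-scaled CPM. Against the mean of the other 4 libraries the log2 differences were 0.90 and 0.89 on library size alone and 0.46 and 0.45 in TPM, each under 2-fold.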

How the results depend on the processing

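No setting gave a gene of the 41 an adjusted *P* under 0.05, or an unadjusted one with a 2-fold change. The count at an unadjusted *P* of 0.05, 1 over 4 libraries, was 0 with the DESeq2 test, library size only, no filter, all 5 libraries (with or without length offsets), and siRNA596 with or without the replicate block. In these settings 0.259% (siRNA596, no block) to 3.435% (no filter) of all genes passed. Leaving out 1 library gave 0 to 4. The 4 were Plk1, Aurka, Aurkb and Anln without NC replicate 1, where 16.4% of all genes passed. The median log2 fold change was -0.067 with all 5 libraries, -0.054 with length offsets, -0.13 for siRNA596 alone and -0.13 with the replicate block, and -0.02 to 0.02 with 1 library left out. The ratio of summed CPM was 0.963 with all 5 libraries and 0.938 for siRNA596 alone. Genes whose groups did not overlap numbered 12 over 4 libraries, 7 over 5 and 21 to 32 with 1 library left out, where 58.2% to 77.3% of all genes did not overlap, since fewer libraries overlap less. Replicate numbers are only shared between siRNA596 and NC (correlation of deviations 0.095 over 16142 genes), and nothing else pairs these libraries. The sign of single genes changed in 0 to 16 of 41, by setting.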

Other observations

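The regulators that bind the promoters of these genes, and the genes of the preceding phases, were also read over 4 libraries. There 3.3% of all genes tested had an unadjusted *P* under 0.05 in edgeR. Of 15 genes of the MuvB, MYB and NF-Y group none had an unadjusted *P* under 0.05 in edgeR, with a median log2 fold change of 0.02 over 4 libraries and -0.19 over all 5. The lowest *P* fell to Nfya at -0.17 and Nfyc at -0.15, both subunits of the CCAAT-binding NF-Y, and Nfyc turned to 0.17 over all 5. Of 26 genes of G1/S and S phase, 17 lay above 0 with a median of 0.03 (0.08 over all 5), and 1 passed that *P*, downward. It was Ccne1, cyclin E1, at 27.6 and 32.7 CPM in NC, 26.8 in siRNA210, 21.1 in siRNA596 replicate 1 and 54.9 in siRNA596 replicate 2 (log2 fold change -0.34, standard error 0.15, unadjusted *P* = 0.0486 and adjusted *P* = 0.967 from edgeR). The first pair of KD libraries was below NC and the last library above it, with a log2 fold change of 0.18 over all 5. Chaf1b, of histone deposition, followed at 0.17.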
